A study of Mus musculus with 12 samples.

Results

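The cyclin-dependent kinase inhibitors of the Cip/Kip family (Cdkn1a, Cdkn1b, Cdkn1c) and the Ink4 family (Cdkn2a, Cdkn2b, Cdkn2c, Cdkn2d) were followed in ET cells treated with the dioxin TCDD. These 7 genes were taken from 12393 that the array names. Every probe set that the platform annotation assigns to 1 of them alone was used, 9 of 22626 probe sets. Cdkn1a and Cdkn1b each had 2 probe sets, and the other genes had 1 each. Of the 9, 7 probe sets of 6 genes lay at or above the low-level filter (a mean of 3.98 on the log2 scale over the 12 arrays) and were tested among 15844 probe sets. The 2 others, Cdkn1b 1419497_at and Cdkn1c 1417649_at, lay below it and are given as levels only.

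ET is a mouse cell line that the labels call fetal cortical thymic epithelium. Its cells received 5 nM 2,3,7,8-tetrachlorodibenzo-p-dioxin (TCDD), which binds and activates the aryl hydrocarbon receptor (AhR), for 2, 4 or 6 h. Control cells received the solvent 1,4-dioxane, 0.05% by volume, for the same times. Both treatments were given in serum-containing medium, and each of the 6 groups held 2 Affymetrix arrays, which the series' design text calls biological duplicates. The line carries no engineered allele in the labels, and it is a single line of 1 cell type in culture.

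Cyclin-dependent kinases drive the cell through the division cycle once they bind a cyclin, and these inhibitors hold them back. The Cip/Kip proteins p21 (Cdkn1a), p27 (Cdkn1b) and p57 (Cdkn1c) bind assembled cyclin-kinase complexes. The Ink4 proteins p16 (Cdkn2a), p15 (Cdkn2b), p18 (Cdkn2c) and p19 (Cdkn2d) bind the D-cyclin kinases Cdk4 and Cdk6 themselves and so keep the retinoblastoma protein active. Cdkn2a also encodes Arf, which restrains Mdm2, from a separate first exon. The gene for p21 is a classical target of p53. The p27 gene is known as one that AhR induces in rat hepatoma cells and in the developing mouse thymus, where AhR ligands slow division.

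Promoter windows of the Cip/Kip genes are shown first because Cdkn1a and Cdkn1b stood highest above solvent at 2 h. RefSeq promoters (GRCm38.p6, 250 bases before to 50 bases after an annotated start) were found for 6 of the 7 genes, 9 windows in all. They were searched on both strands for the core of the xenobiotic response element that AhR binds, GCGTG, for the Sp1 box GGGCGG and for the TATA sequence TATAAA. A paired p53 core, CATG, 6 bases of any kind and CATG again, was added after the first sequence had been read. Each sequence below runs 5′ to 3′ along the gene. Capitals mark the p53 core pair in the first Cdkn1a window and GCGTG, or its reverse complement, in the others.
Cdkn1a start 1, chr17:29090729-29091028, plus strand: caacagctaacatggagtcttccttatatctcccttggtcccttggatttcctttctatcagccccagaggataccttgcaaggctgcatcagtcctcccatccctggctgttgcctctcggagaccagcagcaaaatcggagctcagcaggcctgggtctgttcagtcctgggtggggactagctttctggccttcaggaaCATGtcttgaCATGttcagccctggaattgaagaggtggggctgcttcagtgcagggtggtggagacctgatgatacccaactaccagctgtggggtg
Cdkn1a start 2, chr17:29093519-29093818, plus strand: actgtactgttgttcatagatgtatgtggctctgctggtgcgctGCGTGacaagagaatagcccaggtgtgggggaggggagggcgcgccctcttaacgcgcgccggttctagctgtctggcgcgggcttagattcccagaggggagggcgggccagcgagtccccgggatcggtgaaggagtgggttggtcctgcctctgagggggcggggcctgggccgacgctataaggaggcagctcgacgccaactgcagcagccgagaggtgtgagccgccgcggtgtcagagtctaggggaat
Cdkn1b start 1, chr6:134920151-134920450, plus strand: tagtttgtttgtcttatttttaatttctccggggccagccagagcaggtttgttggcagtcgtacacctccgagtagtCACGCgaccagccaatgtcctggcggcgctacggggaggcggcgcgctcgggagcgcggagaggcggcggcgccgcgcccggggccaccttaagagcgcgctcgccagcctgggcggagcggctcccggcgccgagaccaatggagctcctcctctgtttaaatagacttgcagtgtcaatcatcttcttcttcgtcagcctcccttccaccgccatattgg
The first Cdkn1a window held the p53 core pair centred at position -41 from the start, and 0 copies of GCGTG or GGGCGG. That pair occurred in 234 of 32851 promoter windows of the mouse table, 0.712%. The second Cdkn1a window held 1 GCGTG, at -204, and 2 Sp1 boxes. The Cdkn1b window held 1 GCGTG on the other strand, at -170, and 1 Sp1 box. GCGTG is common, with at least 1 copy in 32.4% of all windows, and GGGCGG was in 35.7%. A match is a run of letters and not evidence that a factor binds there.

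**Figure D1:**
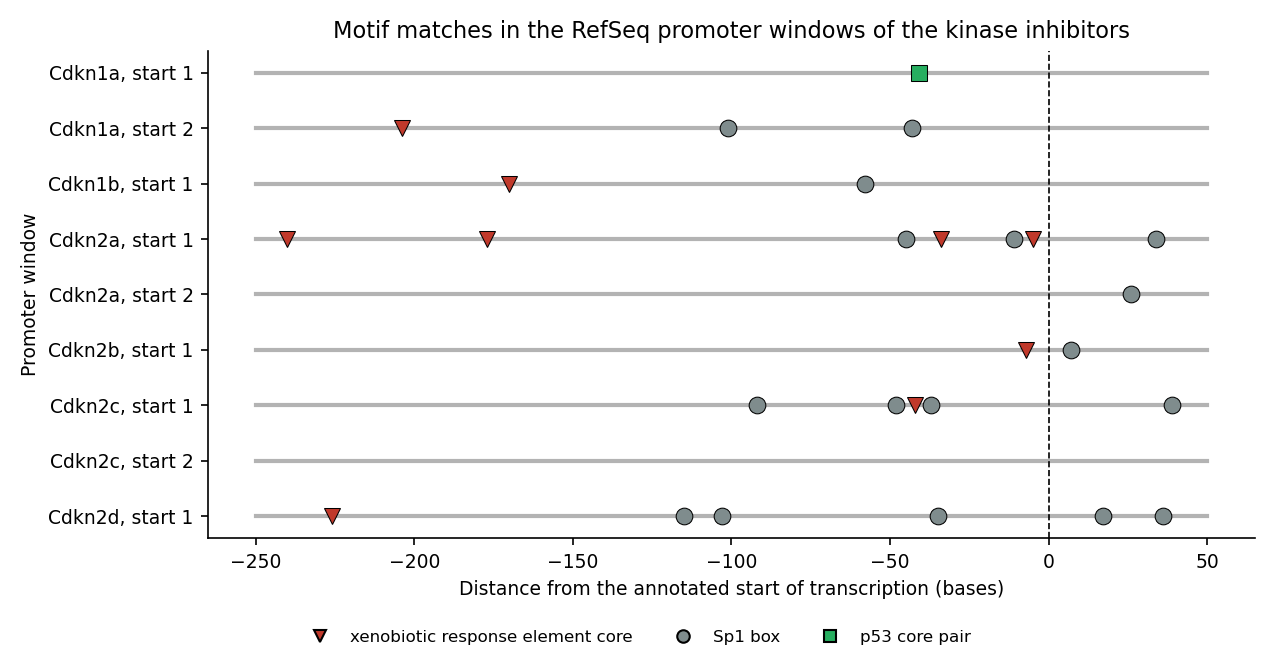
Motif matches in the 9 promoter windows, plotted by distance in bases from the annotated start, with 1 line per window. Red triangles are GCGTG, grey circles GGGCGG and the green square the p53 core pair. GCGTG lies in 6 of the 9 windows, 4 times in the first Cdkn2a window, and the p53 core pair in the first Cdkn1a window.

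Among the Ink4 genes, the first Cdkn2a window held 4 GCGTG copies and those of Cdkn2b, the first start of Cdkn2c and Cdkn2d held 1 each. The 1 copy in Cdkn2c shared letters with an Sp1 box (1 overlap). TATAAA was in 0 of the 9 windows and in 13.6% of all windows. The second windows of Cdkn2a and Cdkn2c held 0 copies. GCGTG was thus found in at least 1 window of Cdkn1a, of Cdkn1b and of each of the 4 Ink4 genes, but not in every window. Which Cdkn2a start serves p16 and which Arf was not examined.

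The treatment was visible on every array. Cyp1a1, the cytochrome P450 that AhR induces, lay at log2 levels of 9.3 to 11.1 on the 6 arrays titled TCDD and 4.0 to 5.5 on the 6 titled solvent (1422217_a_at, average log2 change 5.83 ± 0.26 SE, limma adjusted p = 1.4e-05). This matters because the labels of 3 arrays conflicted, 1 of them in its treatment. The treatment field of the second 4 h TCDD array names the solvent, and the description and protocol of both 6 h solvent arrays give 4 h. Titles set the groups. Cyp1a1 cannot check the time of a solvent array, so the 6 h solvent group rests on its titles alone. The 12 arrays were also divided by clustering all tested values, with the number of clusters set at 4. The largest cluster, of 7 arrays (3 TCDD, 4 solvent), is called the larger set. All other clusters were pooled as a smaller set of 5 (3 TCDD, 2 solvent). The smaller set is thus not a single cluster. In the smaller set lay the first 4 h TCDD array and, for TCDD and solvent alike, the arrays numbered 2 at 2 h and 6 h. It stood apart in the metallothioneins, stress-induced metal-binding proteins, with Mt1 at 7.5 to 8.2 and Mt2 at 8.9 to 10.7, against 5.9 to 6.0 and 6.4 to 6.8 in the larger set. The 3′ minus 5′ level of the b-Actin control probe sets, a measure of RNA quality, also differed between the sets. It was 0.5 to 0.6 (log2) in the smaller set and 0.7 to 0.8 in the larger set. For Gapdh the spans overlapped, 0 to 0.1 in the smaller set and 0 to 0.2 in the larger. What separated the sets was not tested. Results are given without and with the set as a block. The sets were drawn from the values they are then used to test, so a p-value with the block can come out too small. Of the labelled cell type's markers, 7 of 11 genes on the array lay above the filter (Foxn1, Krt8 and Ctsl among them, Epcam, Krt18 and Prss16 not), against 14 of 14 fibroblast and mesenchyme markers, 4 of 9 medullary epithelial, 4 of 8 thymocyte and leukocyte and 1 of 5 endothelial markers. The leukocyte marker Ptprc and the endothelial marker Pecam1 lay below the filter. Above it lay Cd3e (5.56), Cd4 (5.53 and 4.92), Lyz2 (4.48), 1 Cd8a probe set (4.14) and the endothelial marker Kdr (4.53). The 7 cortical epithelium genes above the filter were Foxn1 (4.36), Krt8 (5.04 and 4.12), Dll4 (4.63), Tbata (4.68), Ccl25 (5.9), Ctsl (11.36) and Cxcl12 (10.62 and 12.31). Another Krt8 probe set (3.95) lay below the filter. Foxn1 and the lower of the 2 Krt8 values above the filter were close to it. Whether these levels identify the cell type was not tested. The mean level of the fibroblast and mesenchyme list spanned 8.96 to 9.77 on TCDD arrays and 9.34 to 9.72 on solvent arrays. That of the cortical epithelium list spanned 5.23 to 5.36 on TCDD arrays and 5.21 to 5.37 on solvent arrays. In bulk RNA, fewer cells with a transcript and less of it per cell cannot be told apart.

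Cdkn1a was the member furthest above solvent. After 2 h, probe set 1424638_at read 8.9 and 9.8 (log2) on the TCDD arrays, against 6.0 and 7.3 on the solvent arrays. At 4 h it read 8.3 and 6.6 with TCDD and 5.8 and 5.9 with solvent. At 6 h it read 6.1 and 6.9 with TCDD, against 5.6 and 6.6 with solvent. Both 2 h TCDD arrays thus lay above all other arrays. The treatments did not overlap at 2 h and 4 h, and at 6 h they did. The log2 change was 2.70 ± 0.61 SE at 2 h (6.5-fold, 95% interval 1.33 to 4.07), 1.60 ± 0.61 at 4 h (0.23 to 2.97) and 0.40 ± 0.61 at 6 h (-0.97 to 1.77), with n = 2 against 2 each time. None of these passed limma's test over all probe sets (adjusted p = 0.834, 0.973 and 1), nor did the average of the 3 times, 1.57 ± 0.35 (adjusted p = 0.365).

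Each 2 h group held 1 array of each set, and the level of this probe set differed between the sets. It averaged 1.14 higher in the smaller set at equal treatment and time. Within sets, TCDD minus solvent at 2 h was 2.9 in the larger and 2.5 in the smaller. With the set as a block the 2 h change kept its size with a smaller error, 2.70 ± 0.21 (2.22 to 3.18), and passed (limma adjusted p = 0.00184, place 2 of 15844). The average of the 3 times, 1.38 ± 0.12, passed as well (adjusted p = 0.00194). At 4 h the block lowered the change to 1.03 ± 0.22 (adjusted p = 0.566). The high value of 8.3 lay in the smaller set, which had no 4 h solvent array. Without the block, the 4 h change was 0.75 when the first 4 h TCDD array was left out and 2.45 when the second was. With the block, the 2 h call held without any 1 of 11 of the 12 arrays. It was lost without the first 2 h TCDD array (adjusted p = 0.085, range 0.000262 to 0.085 over the 12 fits).

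The second Cdkn1a probe set, 1421679_a_at, stood above solvent at 2 h, by less. It read 5.3 and 6.7 with TCDD and 4.4 and 5.1 with solvent at 2 h. At 4 h the values were 5.6 and 4.7 with TCDD, against 4.9 on both solvent arrays. At 6 h they were 4.6 and 4.7 with TCDD and 4.9 and 4.7 with solvent. The groups were apart at 2 h, where most of the distance came from the second TCDD array, and overlapped or touched at 4 h and 6 h. The log2 change was 1.25 ± 0.43 at 2 h (0.28 to 2.22), 0.25 ± 0.43 at 4 h and -0.15 ± 0.43 at 6 h, and it did not pass at any time (limma adjusted p = 1, 0.973 and 1; with the set block 0.664, 0.999 and 0.959). Without the second 2 h TCDD array the 2 h change was 0.55, and without the first it was 1.95. Both Cdkn1a probe sets gave the same order of times, with the effect largest at 2 h, but they differed in size. Levels of different probe sets cannot be set against each other, and which transcripts each one detects was not examined.

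Cdkn1b, the gene for p27, also read above solvent at 2 h. Probe set 1434045_at read 9.7 and 9.0 with TCDD and 8.3 and 7.7 with solvent at 2 h. It read 8.2 and 9.0 with TCDD and 8.2 and 8.3 with solvent at 4 h. At 6 h it read 8.7 and 8.4 with TCDD, against 8.3 and 8.1 with solvent. TCDD arrays were thus above solvent arrays without overlap at 2 h and, by 0.1 between the nearest, at 6 h, while the first 4 h TCDD array matched the lower solvent array. The log2 change was 1.35 ± 0.32 at 2 h (2.55-fold, 0.64 to 2.06) and 0.35 ± 0.32 at both 4 h and 6 h (-0.36 to 1.06), none past limma's test (adjusted p = 0.89, 0.973 and 1). The 4 h value turned on 1 array, with 0.75 without the first TCDD array and -0.05 without the second, and it was 0.61 ± 0.18 with the set block (adjusted p = 0.999). The average, 0.68 ± 0.18, had an adjusted p of 0.69.

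Where Cdkn1a read higher in the smaller array set, Cdkn1b read lower there, by 0.52. Its differences within sets at 2 h were close to each other, 1.4 in the larger and 1.3 in the smaller, and 0.4 and 0.3 at 6 h. With the block, Cdkn1b passed at 2 h (1.35 ± 0.18, adjusted p = 0.0424, place 9) and on average (0.77 ± 0.10, adjusted p = 0.0188). Of 12 fits that left out 1 array each and kept the block, 2 kept the 2 h call, namely those without a 4 h TCDD array, and adjusted p ran from 0.0194 to 0.526. The average kept its call in 3 of 12, with adjusted p from 0.0127 to 0.145.

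**Figure D2:**
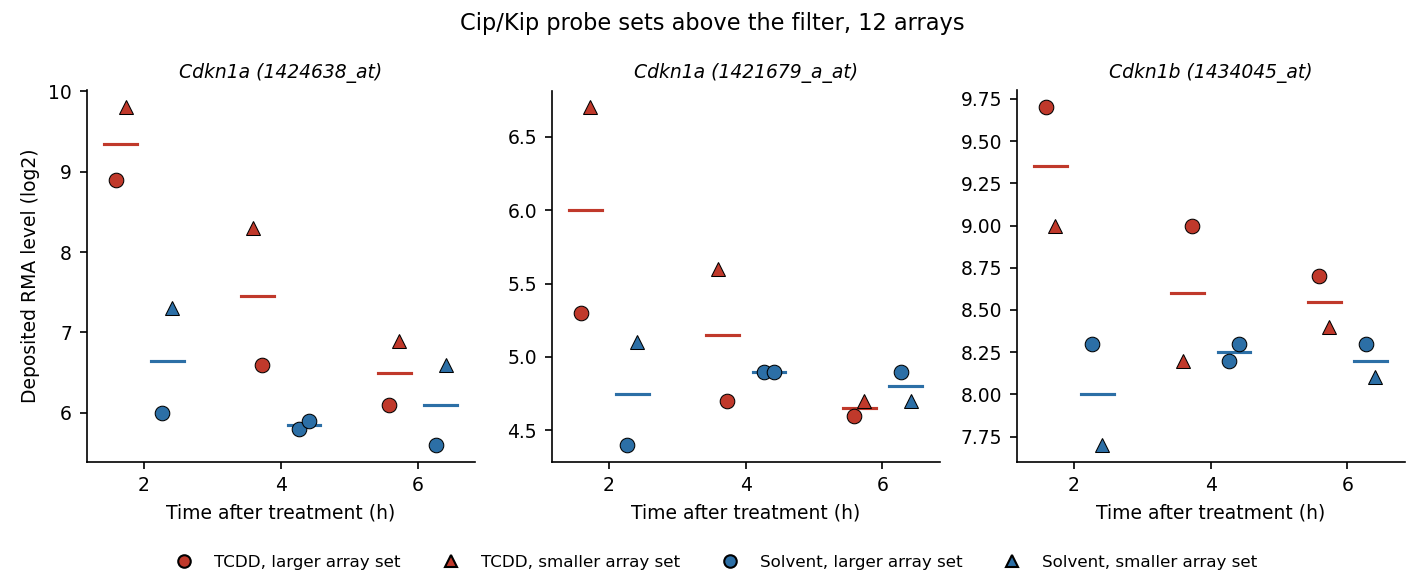
Deposited log2 levels of the 3 tested Cip/Kip probe sets on the 12 arrays, by hours after treatment, with TCDD in red left of solvent in blue. Circles are arrays of the larger set, triangles arrays of the smaller set, and bars the mean of the 2 arrays; each panel has its own scale. At 2 h both TCDD arrays lie above both solvent arrays in all 3 panels, and triangles lie above circles for Cdkn1a and below them for Cdkn1b at 2 h.

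Neither Cdkn1c nor the other Cdkn1b probe set gave a usable signal. Cdkn1c 1417649_at read 3.3 to 3.5 with TCDD and 3.1 to 3.5 with solvent. Cdkn1b 1419497_at read 3.3 to 3.7 with TCDD and 3.2 to 3.7 with solvent. Both spans overlapped, and both stayed under the filter on every array, so no change can be read for p57 and the p27 result rests on 1 probe set.

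The 4 Ink4 genes lay mostly below solvent, with small differences; Cdkn2d at 2 h was the exception. Cdkn2b, the gene for p15 and known as a target of TGF-beta signalling, read 7.9 and 7.6 with TCDD and 8.4 and 8.0 with solvent at 2 h. It read 7.9 and 8.4 with TCDD, against 8.7 and 8.8 with solvent, at 4 h. At 6 h it read 8.4 and 7.3 with TCDD and 8.7 and 7.9 with solvent. TCDD arrays were below solvent arrays without overlap at 2 h and 4 h and overlapped them at 6 h. The log2 change was -0.45, -0.60 and -0.45 at 2, 4 and 6 h (SE 0.37 each) and -0.50 ± 0.22 on average (-0.98 to -0.02, limma adjusted p = 1). The 6 h value turned on 1 array, with 0.10 without the second TCDD array and -1.0 without the first. Within sets it was negative in all 5 comparisons that could be made, between -0.6 and -0.3. The average with the block was -0.40 ± 0.12 and did not pass (adjusted p = 0.485).

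Cdkn2c, the gene for p18, read 8.7 and 8.1 with TCDD and 8.9 and 8.3 with solvent at 2 h, and 8.0 and 8.4 with TCDD and 8.9 and 8.8 with solvent at 4 h. At 6 h the values were 8.4 and 8.0 with TCDD, against 8.5 and 8.6 with solvent. The groups overlapped at 2 h and were apart, with TCDD lower, at 4 h and 6 h. The log2 change was -0.20, -0.65 and -0.35 at the 3 times (SE 0.27 each) and -0.40 ± 0.16 on average (-0.75 to -0.05, limma adjusted p = 1).

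Cdkn2a, which encodes p16 and Arf, read 6.6 and 6.5 with TCDD and 7.2 and 6.3 with solvent at 2 h. At 4 h it read 6.5 and 6.6 with TCDD, against 7.1 and 7.0 with solvent, and at 6 h 6.9 and 5.4 with TCDD and 6.7 and 6.2 with solvent. Only at 4 h were the groups apart. Its average change was -0.33 ± 0.25 (-0.89 to 0.23), and at 6 h it turned on 1 array, with 0.45 without the second TCDD array and -1.05 without the first. Cdkn2d, the gene for the p19 kinase inhibitor, read 6.9 and 6.7 with TCDD and 6.9 and 6.4 with solvent at 2 h. It read 6.8 and 6.9 with TCDD, against 7.1 and 7.2 with solvent, at 4 h, and 6.8 and 6.4 with TCDD and 7.1 and 6.8 with solvent at 6 h. Its groups were apart at 4 h, met in 1 value at 6 h and overlapped at 2 h, with an average change of -0.17 ± 0.13 (-0.45 to 0.11).

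The Ink4 changes were below 0 for 3 of 4 genes at 2 h and 4 of 4 at both 4 h and 6 h, with medians of -0.20, -0.55 and -0.35. Over all tested probe sets 42.8%, 46.4% and 51.1% were below 0 at these times, with medians of 0, 0 and -0.05. Over the alternatives run, the 2 h change lay on both sides of 0 for Cdkn2a (-0.65 to 0.25), Cdkn2c (-0.50 to 0.10) and Cdkn2d (-0.12 to 0.40). No Ink4 gene passed the test at any time or on average, with or without the set block. All 4 read lower in the smaller array set, by 0.30 (Cdkn2d) to 0.62 (Cdkn2a and Cdkn2b), and the smaller set held 1 more TCDD array than solvent arrays, the 4 h one. At 4 h, the difference within the larger set was -0.45 for Cdkn2a, -0.35 for Cdkn2b, -0.45 for Cdkn2c and -0.25 for Cdkn2d. Each rests on the same 1 TCDD array against 2 solvent arrays. That TCDD array is the one whose treatment field names the solvent. Over the alternatives run, the 4 h change of Cdkn2a ran from -0.55 to 0.20.

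**Figure D3:**
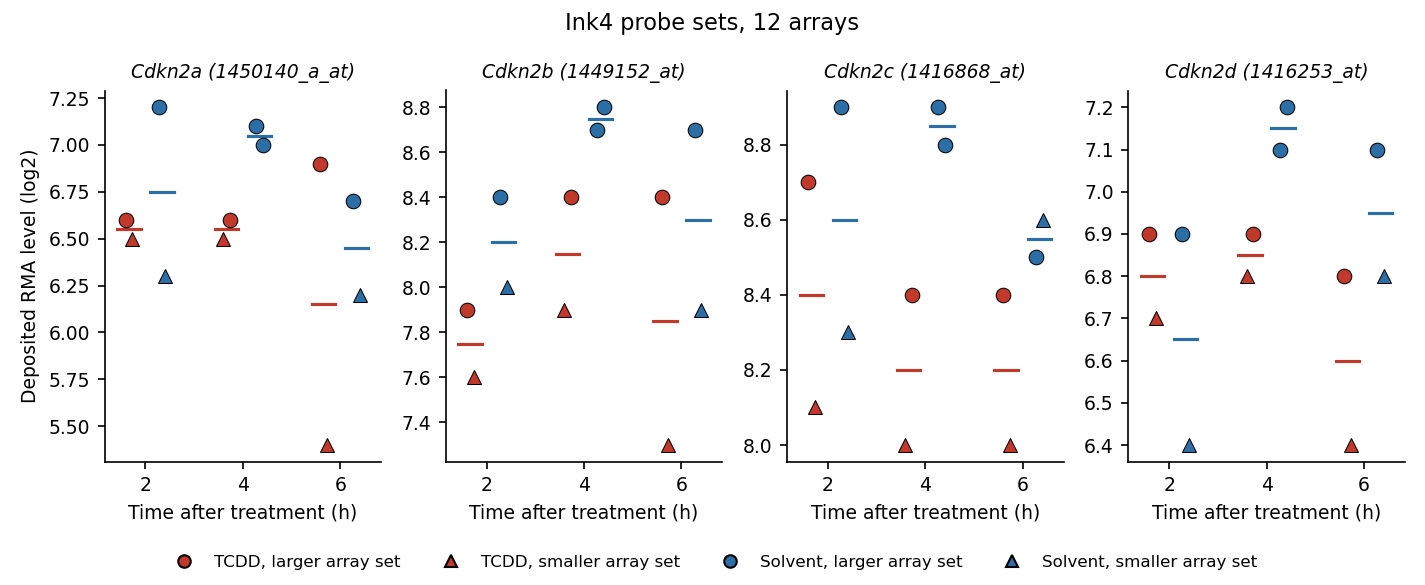
Deposited log2 levels of the 4 Ink4 probe sets on the 12 arrays, by hours after treatment, with TCDD in red left of solvent in blue. Circles and triangles are arrays of the larger and the smaller set, bars the mean of the 2 arrays, and each panel has its own scale. At 4 h both TCDD arrays lie below both solvent arrays in all 4 panels, and the lowest value of each panel is on a TCDD array or tied with one.

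Counted over the 7 tested probe sets, 0 passed at 2 h, where 0.0189% of all probe sets did. At 4 h 0 passed (0.0126% of all), at 6 h 0 (0.00631%) and on average 0 (0.0947%). An unadjusted limma p under 0.05 was reached by 3 of 7 at 2 h (1.49% of all probe sets), 2 of 7 at 4 h (2.17%), 0 of 7 at 6 h (2.15%) and 4 of 7 on average (3.36%). With the set block 2 of 7 passed at 2 h, both higher with TCDD (0.0568% of all were called higher), 0 at 4 h (0.0442%), 0 at 6 h (0.0505%) and 2 on average, both higher (0.271%). TCDD arrays lay wholly above solvent arrays for 3 of 7 at 2 h (7.16% of all), 1 at 4 h (7.95%) and 1 at 6 h (9.69%). They lay wholly below for 1 of 7 at 2 h (6.68% of all), 4 at 4 h (11.1%) and 1 at 6 h (9.66%).

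**Figure D4:**
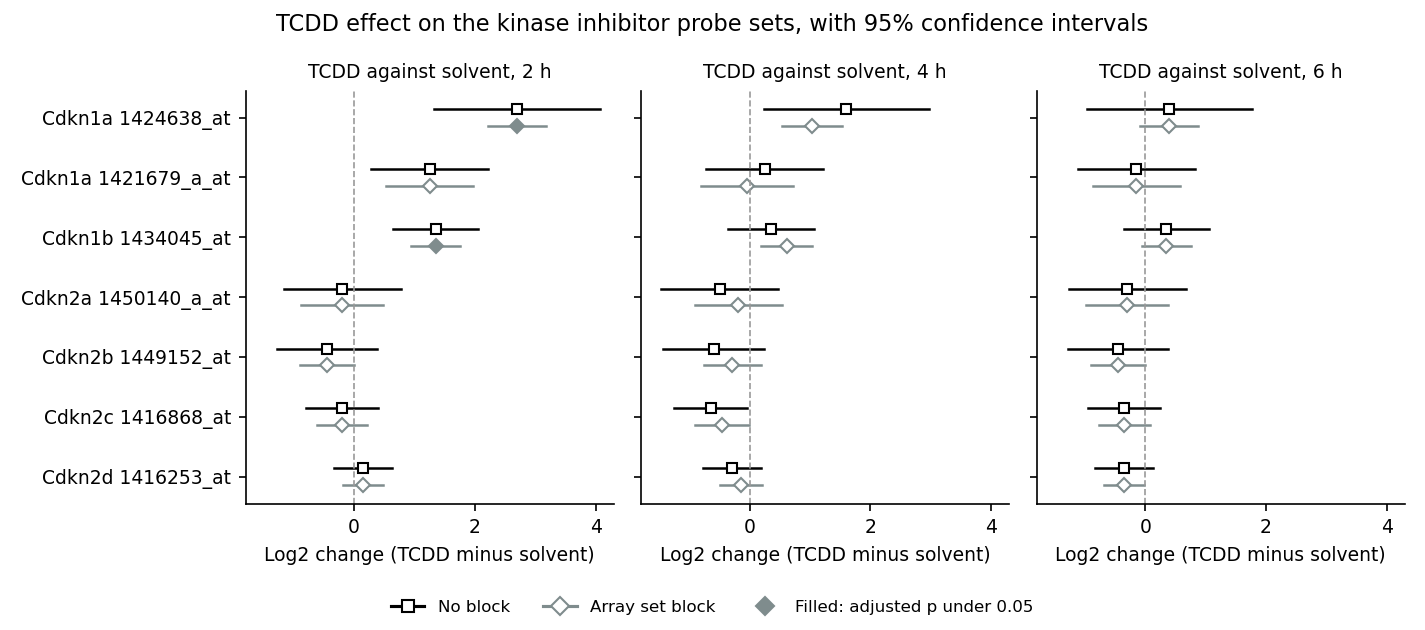
Log2 change, TCDD minus solvent, with its 95% confidence interval for the 7 tested probe sets at each time. Black squares are the fit without a block, grey diamonds the fit with the set block, and filled symbols have an adjusted p under 0.05. The 2 filled symbols are Cdkn1a 1424638_at and Cdkn1b at 2 h with the block, and all 3 Cip/Kip intervals reach across 0 at 6 h.

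Over time, both Cdkn1a probe sets read lower under TCDD at 6 h than at 2 h, and 1 of them passed the test with the block. Probe set 1424638_at read 6.1 and 6.9 at 6 h, against 8.9 and 9.8 at 2 h, a log2 change of -2.85 ± 0.61 without the block (limma adjusted p = 0.597) and -2.85 ± 0.21 with it (7.21-fold lower, adjusted p = 0.00332, place 1 of 15844). In solvent it read 5.6 and 6.6 at 6 h and 6.0 and 7.3 at 2 h, a change of -0.55 ± 0.61 (adjusted p = 0.97; 0.79 with the block). The TCDD time difference kept its call with the block in 9 of 12 fits that left out 1 array each. It lost it without the first 2 h, the second 2 h or the second 6 h TCDD array (adjusted p = 0.184, 0.0845 and 0.143). Probe set 1421679_a_at changed by -1.35 ± 0.43 under TCDD and passed in neither fit (adjusted p = 0.597 without the block and 0.281 with it). Without the first 2 h TCDD array it changed by -2.05, and without the second by -0.65. Under solvent its change was 0.05 ± 0.43.

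Without the block, 0 of 7 members passed in the 6 h against 2 h comparison under TCDD (0% of all probe sets), and 3 of 7 had an unadjusted limma p under 0.05 (8.1% of all). With the block 1 of 7 passed, lower at 6 h (0.0189% of all). Under solvent 0 of 7 passed in either fit (0% of all), and 0 had an unadjusted p under 0.05 without the block (2.82%) and 1, Cdkn1a 1424638_at, with it (5.67%). Cdkn1b 1434045_at changed by -0.80 ± 0.32 under TCDD (adjusted p = 0.603) and 0.20 ± 0.32 under solvent (adjusted p = 0.97). The 4 Ink4 genes differed by -0.40 to 0.10 between 6 h and 2 h under TCDD and by -0.30 to 0.30 under solvent.

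Whether the TCDD effect itself differed between the times was tested with limma's moderated F-test. For Cdkn1a 1424638_at the effect at 6 h minus that at 2 h was -2.30 ± 0.87, and the F-test gave an unadjusted p of 0.0709 (adjusted p = 1). With the block the F-test p was 7.45e-05, the smallest of all 15844 probe sets, and still did not pass (adjusted p = 1). Cdkn1b gave 0.0809 without the block and 0.00751 with it, place 26. In neither fit did any member or any other probe set pass this test (0% of all; 0 of 7 members had an unadjusted p under 0.05 without the block, 0.663% of all, and 3 of 7 with it, 1.49%).

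Among the members, the levels of the 2 Cdkn1a probe sets went together over the 12 arrays (Pearson r = 0.85, Spearman rho = 0.55). The 6 pairs of Ink4 genes had r of 0.70 to 0.82. These arrays share treatments, times and sets, so the values describe the series and do not measure independent draws. The sets matter to them. Within the 7 arrays of the larger set the Ink4 pairs ranged from 0.15 to 0.74. Cdkn1a 1424638_at and Cdkn1b, at r = 0.50 over all arrays, stood at 0.95 within the larger set, where Cdkn2b stood at -0.90 with each of them. In that set the first 2 h TCDD array held the highest value of Cdkn1a 1424638_at (8.9) and of Cdkn1b (9.7). The other Cdkn1a probe set, 1421679_a_at, stood there at 0.54 with Cdkn1b and -0.30 with Cdkn2b. Over all 12 arrays Cdkn2b had -0.70 with Cdkn1a 1424638_at, -0.42 with 1421679_a_at and -0.17 with Cdkn1b.

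**Figure D5:**
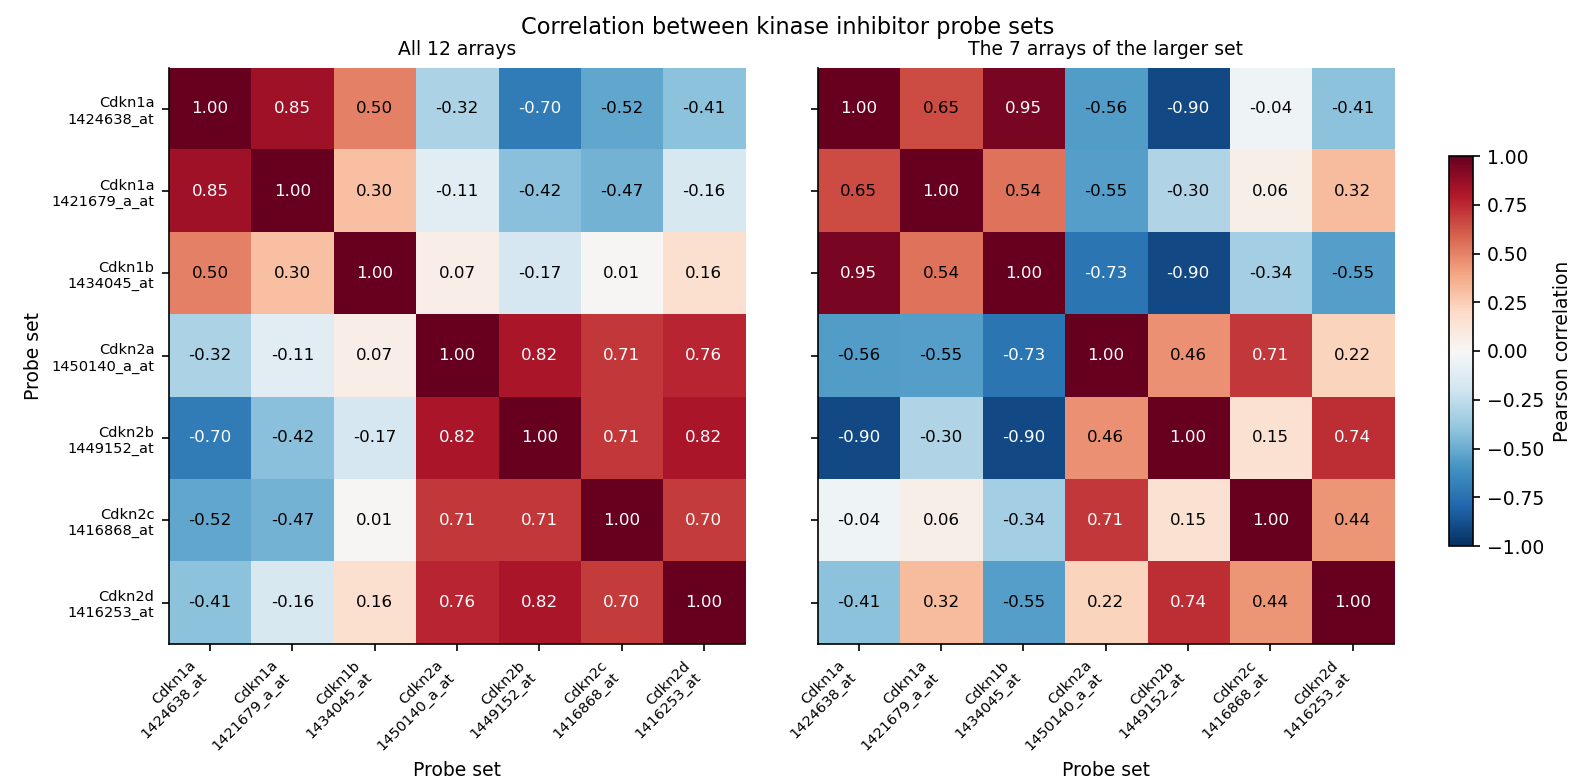
Pearson correlation between the log2 levels of the 7 tested probe sets, over all 12 arrays on the left and over the 7 arrays of the larger set on the right, coloured from -1 (blue) to 1 (red). On the left the 4 Ink4 genes form a block of 0.70 to 0.82. On the right Cdkn1a 1424638_at and Cdkn1b reach 0.95, and Cdkn2b lies at -0.90 with both. Cdkn1a 1421679_a_at has 0.54 with Cdkn1b and -0.30 with Cdkn2b there.

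Of 14565 other probe sets with 1 gene symbol, the 5 most like Cdkn1a 1424638_at over the 12 arrays by Pearson r were Maff (0.967), Smim3 (0.941), Ndrg1 (0.925), Spsb1 (0.924) and Fosl1 (0.919). Maff is a small Maf transcription factor, Ndrg1 a stress-responsive gene and Fosl1 a subunit of AP-1. Within the larger set they had r of 0.903 to 0.986. Their own log2 changes at 2 h, TCDD minus solvent, were 1.65 (Maff), 1.30 (Smim3), 1.00 (Ndrg1), 1.10 (Spsb1) and 1.30 (Fosl1). None passed limma's test in the fit without the block, and the fit with the block was not looked up for them. They were picked for likeness on the same 12 arrays, where 1424638_at was highest at 2 h with TCDD. A rise at 2 h was thus part of how they were chosen. The other Cdkn1a probe set came at place 48 and Cdkn1b at place 1596. After the mean of each time was subtracted, Maff stayed at the top (0.96), followed by Ddit4 (0.953) and Slc20a1 (0.952).

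Nearest to the second Cdkn1a probe set were Ppp1r15a (0.962), both probe sets of Btg2 (0.944 and 0.94), Gadd45b (0.936) and Lif (0.933). Within the larger set r was 0.949 for Ppp1r15a and lower for the others, 0.761 and 0.655 for Btg2, 0.664 for Gadd45b and 0.745 for Lif. Btg2 is an antiproliferative gene that p53 induces, and Ppp1r15a and Gadd45b are induced by cell stress. Cdkn1b 1434045_at was most like Irf1 (0.942), an interferon-regulated transcription factor, then Ubl3 (0.916), Clk3 (0.903), Osbpl2 (0.898) and Lpin1 (0.88), with r of 0.88 to 0.958 within the larger set. The lists of the 2 Cdkn1a probe sets and of Cdkn1b had no gene in common among their first 5.

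Around the inhibitors, 7 lists of genes were followed, chosen by their known roles. Of 9 tested cyclins and kinases of the G1/S step, 0 passed at any time or on average, with or without the block, and the median average log2 change of the list's probe sets was -0.03, within -0.15 to 0.27, beside 0 for all probe sets. Ccnd2, a D-type cyclin, had the largest, 0.27 ± 0.23 in 1416122_at, with 0.08 to 0.27 in its other 5 probe sets. Pocket proteins and E2F factors had 9 tested genes, 0 past the test and a median of -0.02, with E2f5 at 0.20 ± 0.17 (0.08 ± 0.14 in its other probe set) and E2f6 at -0.17 ± 0.10. E2F-driven replication genes, which rise as cells enter S phase, had 12 tested, 0 past the test and a median of -0.04, with the thymidine kinase Tk1 at -0.25 ± 0.17 and the ribonucleotide reductase subunit Rrm2 at -0.18 ± 0.13 in 1434437_x_at (-0.10 and 0.05 in its other probe sets). Cdk6 lay below the filter.

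For p27 turnover, the route by which the p27 protein is marked for destruction, 6 genes were tested, 0 passed and the median was 0.04. Uhmk1, a kinase that acts on p27, had 0.40 ± 0.21 in 1433737_at and 0.02 ± 0.11 in its other tested probe set. Skp2, the ubiquitin ligase subunit that recognises p27, had 0.22 ± 0.11 in 1460247_a_at and 0.03 to 0.13 in its other 5. Of 19 tested transcription factors known to act on Cip/Kip genes 0 passed, with a median of -0.02. Ahr itself stood lowest, -0.95 ± 0.48 on average and -1.65 ± 0.83 at 2 h in 1422631_at (mean level 6.86). Its other probe set, 1450695_at, gave 0.00 ± 0.09. That probe set read 4.2 to 4.3 with TCDD and 4.2 to 4.4 with solvent, close to the low-level filter of 3.98. At such a level it cannot decide whether Ahr fell. Cebpd, a C/EBP factor, was at -0.57 ± 0.21 in 1423233_at and -0.20 ± 0.14 in its other probe set. None of these values passed limma's test.

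Of 14 tested p53 targets other than Cdkn1a, 0 passed, and the median average change was 0.07. Btg2 1448272_at had the largest, 0.72 ± 0.28 on average and 1.35 ± 0.48 at 2 h, and its other probe set averaged 0.58 ± 0.25. Sesn1, a stress-induced regulator of growth signalling, had 0.40 ± 0.44 in 1438931_s_at, and -0.02 ± 0.36 and 0.10 ± 0.45 in its other tested probe sets. Mdm2, the p53 inhibitor and a direct p53 target, had -0.03 ± 0.15 (1423605_a_at) and -0.13 ± 0.15 (1427718_a_at). The damage gene Gadd45a had -0.08 ± 0.19. Mdm2 and Gadd45a were named after their values were seen. Among the others, Zmat3 (0.35 ± 0.13), Plk2 (0.27 ± 0.31), Aen (0.28 and 0.32) and Ccng1 (0.07 to 0.22) lay above 0. Phlda3 (-0.18 ± 0.13) and Fas (-0.05 ± 0.15) lay below it. Bbc3 (0.07 ± 0.09), Sesn2 (0.02 and 0.12), Trp53inp1 (0.02 ± 0.23) and Polk (0.02 and 0) lay near 0. These are averages of the 3 times. At 2 h the list's median was 0.10, from -0.50 (Trp53inp1) to 1.35 (Btg2 1448272_at). Bbc3 stood at 0.45 ± 0.15 at 2 h and the Mdm2 probe sets at -0.05 and -0.40. No probe set named Trp53, the p53 gene, alone. Among 15 tested regulators of the Ink4 genes 0 passed, with a median of 0.05. Id1, a helix-loop-helix protein that holds Cdkn2a expression down, stood at -0.70 ± 0.31 on average and -1.55 ± 0.54 at 2 h (limma adjusted p = 1, and 0.0934 with the set block). Tbx3, a T-box repressor of the Cdkn2a locus, had 0.55 ± 0.18 (adjusted p = 0.998).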

How the data were processed

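RNA of the 12 ET cell samples was measured on Affymetrix arrays. The authors' deposited values are log2 levels per probe set with 1 decimal, with RMA named in the submitters' processing notes; its version and the genome build are not given in the sources used here. The method corrects background, gives all arrays 1 distribution and joins the probes of a set into 1 value, so a shift of all genes together cannot be seen and changes near background are compressed. The median was 5.1 on every array. All value columns were used (0 left out). The number of arrays, 2 per group, limits the precision. Nothing says which step the biological duplicates repeated, so p-values measure a spread that may be partly technical.

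From the 22690 probe sets, 64 controls were removed. Of the other 22626, the platform annotation, which can be old, names 1 gene symbol for 20380, several for 691 and none for 1555; genes were named for the first kind only. Tested were the 15844 probe sets whose mean level reached the 30th percentile. limma 3.58.1 in R 4.3.3 fitted a mean for each of the 6 groups (6 residual degrees of freedom, 5 with the array set block) with empirical Bayes variances. Tests were two-sided, with Benjamini-Hochberg adjustment over all tested probe sets and a threshold of 0.05. Array sets came from complete-linkage clustering into 4 clusters, the largest against all others. The titles' replicate numbers were checked for pairing. Differences between first and second arrays of TCDD and solvent correlated at 0.37, 0.16 and 0.71 at 2, 4 and 6 h. All were above 0.1, so a replicate block within each time was fitted too. Between groups of different times such differences correlated at -0.55 to 0.37. At 2 h and 6 h the arrays numbered 2 were those of the smaller set. These values therefore do not show that equal numbers are pairs. The code was first checked on data with known changes.

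All probe sets of the 7 genes are named. Of each gene list, the 1 or 2 members with the largest average effect are named where none passed. A few others were chosen after their values were seen (Mdm2, Gadd45a and further p53 targets). Likeness names the 5 probe sets with the highest correlation. Members, lists and tests were chosen with earlier results of these data known. Alternatives were other filters, variance models, a second quantile normalization, replicate and array set blocks, other solvent groupings and leaving out each array.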

Additional observations from a re-analysis of the deposited data

Results flagged for a closer look

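In 3 cases both TCDD arrays lay above the solvent mean at 2 h and both lay below it at a later time. For Cdkn1a 1421679_a_at the TCDD effect at 6 h minus that at 2 h was -1.40 on the log2 scale, with effects of -0.15 at 6 h and 1.25 at 2 h. For Cdkn2d 1416253_at the effect at 4 h minus that at 2 h was -0.45, and that at 6 h minus 2 h was -0.50, with effects of -0.30 at 4 h, -0.35 at 6 h and 0.15 at 2 h. Limma's F-test of equal effects over the 3 times gave an unadjusted p of 0.111 for Cdkn1a 1421679_a_at and 0.248 for Cdkn2d without the array set block, and 0.0232 (place 96 of 15844) and 0.106 with it, all with an adjusted p of 1.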

How the results depend on the processing

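Among the 7 member probe sets, the count past the test stayed at 0 without the array set block, in each comparison for which an alternative was run. These were other filters on low values, variance models, a second quantile normalization, replicate blocks, only the arrays compared, other solvent groupings, and leaving out each array (0 to 0). Not run were the replicate block within each time for 6 h against 2 h, solvent arrays of all times for 6 h against 2 h and the change over time, and only the arrays compared for the average and the change over time. Pooled 4 h and 6 h solvent arrays were used where the 6 h solvent group enters. The array set block gave 2 at 2 h, 2 on average and 1 for 6 h against 2 h under TCDD, each at 0 without it. With that block, leaving out each array in turn, chosen after seeing the data, gave 0 to 2 at 2 h, 1 to 2 on average and 0 to 1 for 6 h against 2 h under TCDD. The cause was not tested. Treating equal replicate numbers as pairs changed no call. With the replicate block within each time, the 2 h count was 0. The limma adjusted p was 0.245 for both Cdkn1a 1424638_at and Cdkn1b. Without the block of either kind, leaving out 1 array moved the 2 h change of Cdkn1a 1424638_at between 2.05 and 3.35 and that of Cdkn1b between 1.00 and 1.70. Over 42 results for single members and 1450 alternative values, 0 called values changed sign and 47 values that did not pass did. At a filter at the 50th percentile Cdkn1a 1421679_a_at is not tested. With 2 arrays a group, values that did not pass are not shown to be equal.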
